A study of Rattus norvegicus with 6 samples.

Results

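The Nr4a receptors and the Dusp MAP kinase phosphatases were followed here as 7 genes, Nr4a1, Nr4a2, Nr4a3, Dusp1, Dusp2, Dusp5 and Dusp6, in rat ovaries measured on Affymetrix arrays. Their members were every probe set that the platform annotation assigned to only one of these genes, which gave 13 probe sets of 31042 tested (7 genes of 14217). Female rats had been fed liquid diets by total enteral nutrition, that is, through a feeding tube, for 28 days before mating with lean males. The lean group received 155 kcal and the overfed group 220 kcal per kg of metabolic body weight, and ovaries were frozen 4.5 days post coitum. Each of the 6 arrays held 1 RNA pool, 3 lean and 3 overfed, from mated females throughout. The labels used here give no strain, no age and no number of animals per pool, so the p-values measure only the spread between these pools, which may in part be technical. The comparison asks which ovarian genes differ with overfeeding.

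The Nr4a genes encode orphan nuclear receptors that act without a known natural hormone and whose activity follows mainly from how much of them is made. They are immediate-early genes, transcribed within a short time of a hormonal signal, and in the ovary they respond to gonadotropins and prostaglandins acting through cyclic AMP, calcium and MAP kinases. The Dusp genes studied here encode dual-specificity phosphatases that remove phosphate from both the threonine and the tyrosine of activated MAP kinases. Because MAP kinase signalling induces them, they form a negative feedback loop, and their transcripts are often read as a trace of recent kinase activity.

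The deposited values are log values centred on each probe set's own median across the pools, and base 2 was assumed. A value of 0 is that median, differences between pools are known, and the level of a transcript, its signal over background and the presence of ovarian markers are not. With an even number of arrays this centring places the third and the fourth value at equal distances from 0.

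The 250 bases before the annotated transcription start (RefSeq, build GRCr8) are shown for the members whose values lay farthest apart between the diets, Nr4a1, Dusp1 and Dusp2. The capitals mark each TGACG on either strand, which reads CGTCA on the strand printed when it lies on the other one. This is the half-site of the cyclic AMP response element, TGACGTCA, the sequence bound by the transcription factor CREB. The windows lie at chr7:134259888-134260137 for Nr4a1, chr10:17184603-17184852 for Dusp1 and chr3:135009386-135009635 for Dusp2, all on the plus strand.
Nr4a1: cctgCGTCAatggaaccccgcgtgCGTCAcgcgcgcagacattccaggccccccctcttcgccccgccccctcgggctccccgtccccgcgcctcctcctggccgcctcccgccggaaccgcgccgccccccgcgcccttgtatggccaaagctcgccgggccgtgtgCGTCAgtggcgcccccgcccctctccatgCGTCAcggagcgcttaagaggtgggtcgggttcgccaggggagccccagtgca
Dusp1: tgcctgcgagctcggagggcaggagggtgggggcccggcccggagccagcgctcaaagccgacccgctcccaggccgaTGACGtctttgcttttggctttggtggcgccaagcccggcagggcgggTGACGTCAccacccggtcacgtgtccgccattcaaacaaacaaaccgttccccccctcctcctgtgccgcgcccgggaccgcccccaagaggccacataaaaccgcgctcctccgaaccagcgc
Dusp2: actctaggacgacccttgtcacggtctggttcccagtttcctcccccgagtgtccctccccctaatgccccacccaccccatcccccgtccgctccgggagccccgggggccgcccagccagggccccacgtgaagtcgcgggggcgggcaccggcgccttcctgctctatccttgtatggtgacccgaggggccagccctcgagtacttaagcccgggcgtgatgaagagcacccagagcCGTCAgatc
The Nr4a1 window held 4 half-sites, beginning 246, 226, 82 and 53 bases before the start. The Dusp1 window held 1 at 172 bases and 1 full element at 124 bases, which counts as 2 overlapping half-sites because it reads the same on both strands. The Dusp2 window held 1 half-site, 9 bases before the start. Of 33469 rat windows of this length, 18.2% held at least 1 half-site, 0.813% held 3 or more, 0.173% held 4 or more, and 1.59% held the full element. Base composition was not matched in these shares. The windows of Nr4a2 and Dusp5 held 1 half-site each and that of Dusp6 held 0. No window was available for Nr4a3, which was not searched. The Dusp5 window also held 2 CArG boxes, the sequence bound by serum response factor, a motif found at least once in 1.5% of windows and 2 or more times in 0.0209%. These matches describe letters in a window, and factor binding was not measured.

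None of the 13 probe sets passed limma's test of the diets adjusted over all 31042 probe sets, and the largest differences went in opposite directions. Nr4a1 lay lower in overfed ovaries by a log2 difference of -0.49, Dusp1 lower by -0.36 in one probe set and -0.16 in the other, and Dusp2 higher by 0.37. The other 9 probe sets lay between -0.13 and 0.20. In all, 5 differences were above 0 and 8 below, with a median of -0.02, beside a median of 0.015 over all tested probe sets. Limma's adjusted p-values of the members ran from 0.702 to 0.995, and 0% of all tested probe sets passed at 0.05. At an unadjusted limma p under 0.05 the count was 1 of 13, Dusp2, and it was higher in overfed ovaries, beside 6.67% of all tested probe sets (3.31% higher and 3.36% lower), which is near the background. The groups overlapped in every one of the 13 probe sets, beside 12.7% of all tested in which they did not overlap. With only 13 probe sets of 7 genes, this was not read as a departure from that share. In an exact two-sided permutation test over pools no member went below p = 0.2, where 3 pools against 3 cannot give less than 0.1. The members behind that count changed with the pools used. Without lean pool 3 they were Nr4a1 and both Dusp1 probe sets (3 in all, with unadjusted limma p-values of 0.00527, 0.0343 and 0.0164) and no longer Dusp2. Without overfed pool 3 they were Dusp2, Nr4a1 and Dusp6 1382778_at (3 in all, with unadjusted limma p-values of 0.00822, 0.0451 and 0.0167). The count was 0 without lean pool 1, overfed pool 1 or overfed pool 2. With both lean pool 3 and overfed pool 1 left out it was 2, Nr4a1 and Dusp1 1368147_at. Of all 31042 probe sets, 1513 were under that p without lean pool 3 and 1580 without overfed pool 3. The number was 1744 without lean pool 1, 2025 without overfed pool 1 and 1797 without overfed pool 2. It was 1694 with both lean pool 3 and overfed pool 1 left out.

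**Figure D1:**
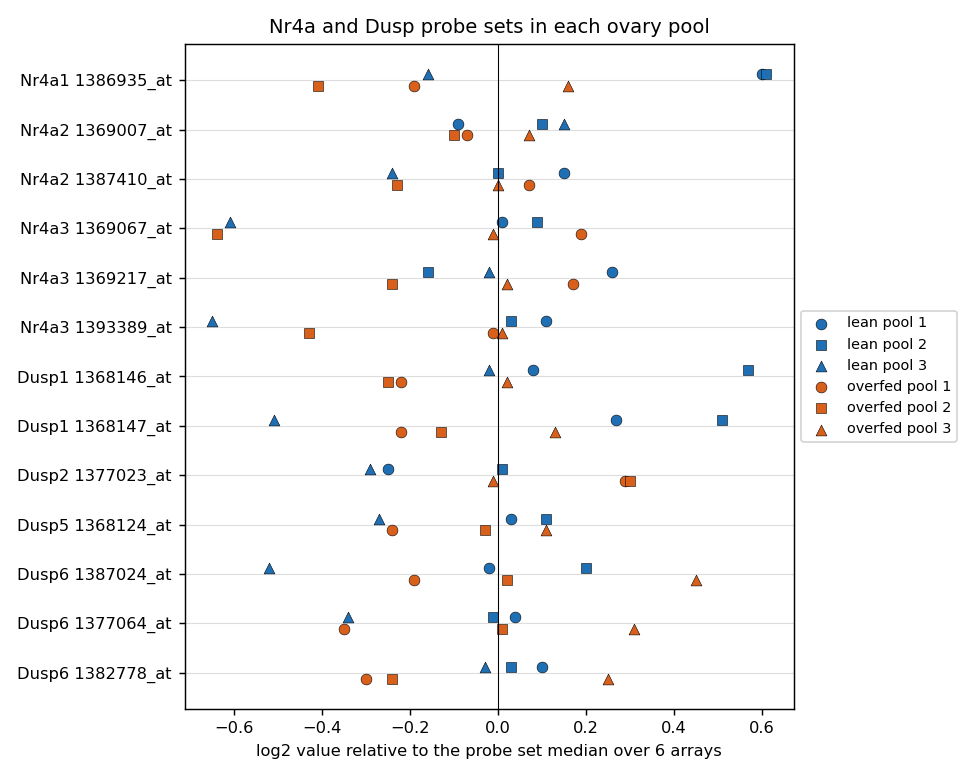
Log2 value of each of the 13 probe sets (rows) in each pool, relative to the probe set's median over the 6 arrays. Blue symbols are lean pools and orange symbols overfed pools, with circles, squares and triangles for pools 1, 2 and 3; lean pool 3 is the lowest point in 6 rows and overfed pool 2 in 5, and the colours overlap in every row.

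Among the receptors, Nr4a1, which in the rat corpus luteum is induced by prostaglandin F2-alpha and activates the progesterone-degrading enzyme gene Akr1c18, spread most between the diets. Its values were 0.60, 0.61 and -0.16 in lean pools 1 to 3, against -0.19, -0.41 and 0.16 in overfed pools 1 to 3. Lean pools 1 and 2 stood above the other 4 pools, and lean pool 3 lay among the overfed pools. The means were 0.35 ± 0.44 (SD, n = 3) in lean and -0.15 ± 0.29 (SD, n = 3) in overfed ovaries. The difference of -0.49 (SE 0.24), or 0.71-fold, had a limma 95% confidence interval of 0.479-fold to 1.05-fold, an unadjusted p of 0.0783 and an adjusted p of 0.801. It stayed below 0 in all 10 alternative settings that can change a difference, from -0.75 without lean pool 3 to -0.36 without lean pool 2 or without overfed pool 2.

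Nr4a2, a receptor best known from dopaminergic neurons, varied little in probe set 1369007_at and more in 1387410_at. Its probe set 1369007_at had values of -0.09, 0.10 and 0.15 in the lean pools, against -0.07, -0.10 and 0.07 in the overfed pools, a range of 1.19-fold over the 6 arrays. The limma difference was -0.09 (SE 0.10, adjusted p = 0.914). The other probe set, 1387410_at, was at 0.15, 0.00 and -0.24 in the lean and 0.07, -0.23 and 0.00 in the overfed pools, with a difference of -0.02 (limma adjusted p = 0.986) that turned above 0 when lean pool 1 or overfed pool 2 was left out. The pools were ordered differently by these probe sets, whose Pearson r over 6 arrays was -0.34, so that they do not give one pattern for Nr4a2.

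Nr4a3, a receptor induced by the ovulatory gonadotropin surge in granulosa cells, spread widely between pools of the same diet. In probe set 1369067_at it was at 0.01, 0.09 and -0.61 in the lean and 0.19, -0.64 and -0.01 in the overfed pools. One pool of each diet, lean pool 3 and overfed pool 2, lay well below the other 4. Probe set 1393389_at gave the same picture, with 0.11, 0.03 and -0.65 in the lean and -0.01, -0.43 and 0.01 in the overfed pools, and the r between these probe sets was 0.93. The third, 1369217_at, was at 0.26, -0.16 and -0.02 in the lean and 0.17, -0.24 and 0.02 in the overfed pools, and did not have the low value in lean pool 3. The limma differences were 0.02 (SE 0.26), 0.03 (SE 0.22) and -0.04 (SE 0.15), with adjusted p-values of 0.995, 0.991 and 0.975, and the first of them turned to -0.17 and the second to -0.07 with quantile normalization. The interval of the first reached from 0.66-fold to 1.55-fold, so differences within that range, in either direction, were not excluded with 3 pools a group.

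Among the phosphatases, Dusp1 and Dusp2 are nuclear enzymes. Dusp1, which acts on p38, JNK and ERK and is induced by stress and by glucocorticoids, lay lower in overfed ovaries. In probe set 1368146_at it was at 0.08, 0.57 and -0.02 in the lean pools, against -0.22, -0.25 and 0.02 in the overfed pools. Lean pool 2 stood above all others, and the groups overlapped only through lean pool 3 and overfed pool 3, whose values were within 0.05 of each other. The limma difference was -0.36 (SE 0.17, 0.781-fold, interval 0.593-fold to 1.03-fold, unadjusted p = 0.0712, adjusted p = 0.787). It was -0.18 without lean pool 2. Probe set 1368147_at had 0.27, 0.51 and -0.51 in the lean and -0.22, -0.13 and 0.13 in the overfed pools, so that lean pool 3 was the lowest of all here. Its difference was -0.16 (SE 0.25, limma adjusted p = 0.941), -0.46 without lean pool 3 and 0.049 without lean pool 2.

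Dusp2, an ERK and p38 phosphatase found mainly in activated leukocytes, was the only one of the 7 genes with a limma interval that did not include 0. Its values were -0.25, 0.01 and -0.29 in the lean pools, against 0.29, 0.30 and -0.01 in the overfed pools. Overfed pools 1 and 2 stood above the other 4, and the groups overlapped through lean pool 2 at 0.013 and overfed pool 3 at -0.013. The means were -0.17 ± 0.16 (SD, n = 3) and 0.19 ± 0.18 (SD, n = 3), and the difference of 0.37 (SE 0.13) was 1.29-fold, with an interval of 1.05-fold to 1.59-fold. The unadjusted limma p was 0.0229 and the adjusted p 0.702. The difference stayed above 0 in all 10 alternative settings that can change it, from 0.26 with both lean pool 3 and overfed pool 1 left out to 0.47 without overfed pool 3. Its unadjusted limma p was 0.05 or more in 6 of 13 alternative settings, at 0.0614 to 0.146, among them those without lean pool 1, lean pool 3, overfed pool 1 or overfed pool 2. Leukocyte markers lay beside it as follows. The mean of 7 macrophage markers was -0.15 to -0.02 in the lean and 0.04 to 0.18 in the overfed pools. Of these, 5 of 7 were higher, 2 of them at an unadjusted limma p under 0.05. The mean of 10 T and NK cell markers was -0.27 to 0.13 in the lean and 0.01 to 0.08 in the overfed pools. Here 10 of 10 were higher, 0 of them at an unadjusted limma p under 0.05. Among all genes' representative probe sets, 52.2% were higher and 7.15% were under that p (2.67% higher and 4.47% lower). Only 2 of 4 listed B cell markers were measured, with a mean of 0.00 to 0.15 in the lean and -0.09 to 0.01 in the overfed pools. Of these, Cd79b was at 0.12, and Ms4a1 went the other way from Dusp2, with a limma difference of -0.33 (SE 0.08, unadjusted p = 0.00467, adjusted p = 0.623). The part of leukocyte number in the Dusp2 difference was not tested. In whole ovary more cells of a type and more RNA per cell cannot be told apart.

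Dusp5 and Dusp6 both act on ERK, the first in the nucleus and the second in the cytoplasm, and both are induced by ERK signalling. Dusp5 was at 0.03, 0.11 and -0.27 in the lean and -0.24, -0.03 and 0.11 in the overfed pools, so that lean pool 3 and overfed pool 1 were low. The mean of 8 corpus luteum markers was also lowest in those pools, at -0.11, 0.24 and -0.35 in the lean and -0.48, 0.06 and 0.03 in the overfed pools, and its part in the Dusp5 values was not tested. The Dusp5 limma difference was -0.01 (SE 0.13, interval 0.796-fold to 1.24-fold, adjusted p = 0.994). Dusp6 in probe set 1387024_at was at -0.02, 0.20 and -0.52 in the lean and -0.19, 0.02 and 0.45 in the overfed pools, a range of 1.96-fold. The lowest pool was a lean one and the highest an overfed one, yet the remaining 4 interleaved. Probe set 1377064_at ran from -0.35 in overfed pool 1 to 0.31 in overfed pool 3, and 1382778_at from -0.30 to 0.25 in the same pools, so in both the lowest and the highest value belonged to one diet. The 3 limma differences were 0.20 (SE 0.23), 0.09 (SE 0.18) and -0.13 (SE 0.15), with adjusted p-values of 0.912, 0.958 and 0.915. The first was -0.005 without lean pool 3.

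**Figure D2:**
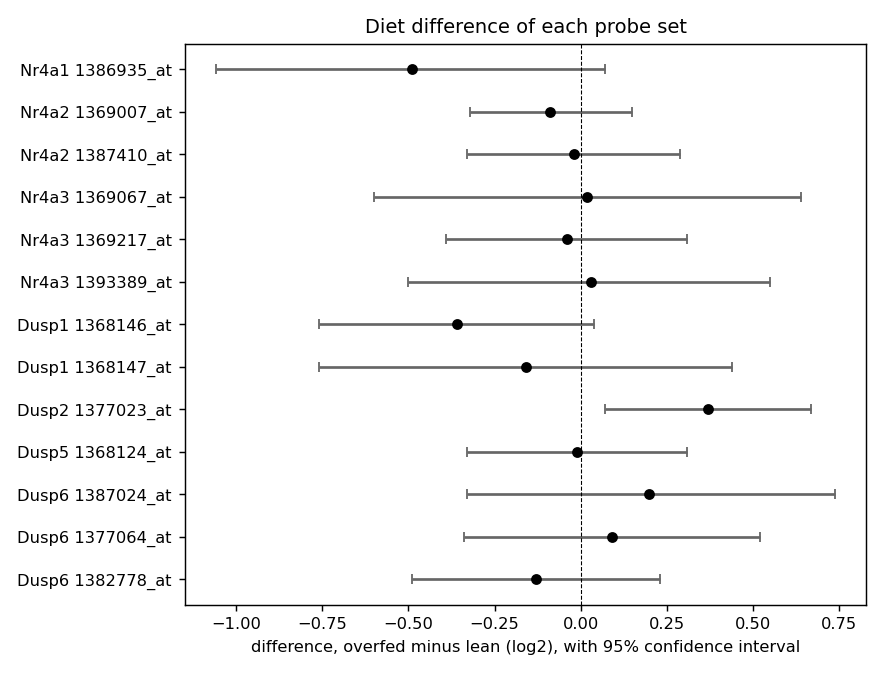
Difference in log2 value, overfed minus lean, of each of the 13 probe sets (rows), with limma's 95% confidence interval as bars, 3 pools a group. Only the interval of Dusp2, from 0.07 to 0.67, lies on one side of 0.

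The members varied more between pools of the same diet than most of the array did. The SD between pools, taken over both diets, was above the median of all tested probe sets (0.14) in 12 of the 13 and above their 75th percentile in 9. It was 0.41 for Nr4a3 (1369067_at), at percentile 95.4 of all tested probe sets, 0.37 for Nr4a1 at percentile 94.1, 0.35 for Dusp6 (1387024_at) at percentile 93.1 and 0.25 for Dusp1 (1368146_at) at percentile 84.3. Dusp5 (0.19, percentile 69.9), Dusp2 (0.17, percentile 65) and Nr4a2 (1369007_at, 0.11, percentile 34.5) varied less. The other Nr4a2 probe set, 1387410_at, had an SD of 0.18 at percentile 67.5. The median size of the diet difference, sign left out, was 0.0914 over the members and 0.0907 over all tested probe sets. These percentiles describe the members and were not tested, and probe sets of one gene share their transcript.

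**Figure D3:**
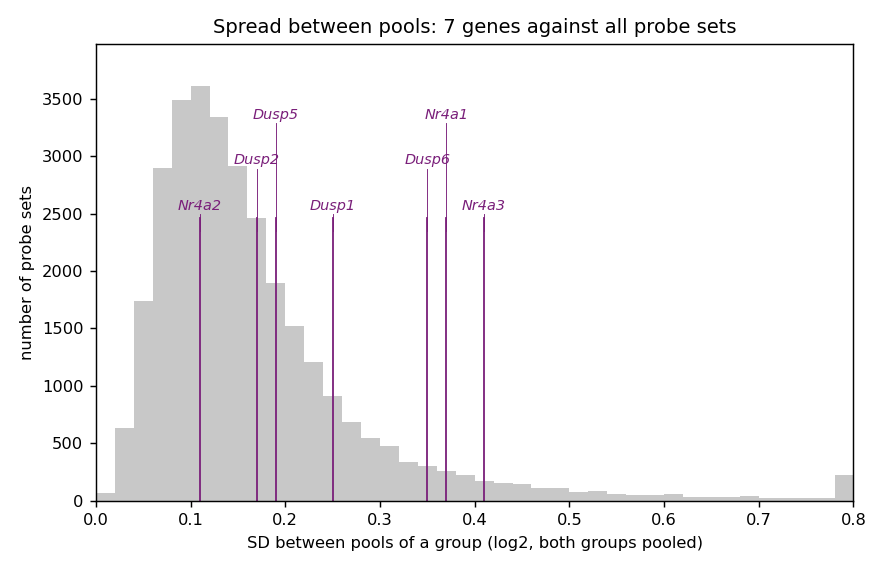
Number of probe sets (vertical axis) by SD between pools of a group, in log2 units over both diets; the last bar collects all values of 0.78 and above. Purple lines mark the representative probe set of each of the 7 genes, of which Nr4a1, Nr4a3 and Dusp6 lie in the right tail at 0.37, 0.41 and 0.35.

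Certain pools were low in several members at once. Lean pool 3 held the lowest value of 6 of the 13 probe sets, overfed pool 2 of 5 and overfed pool 1 of 2, while these pools held the lowest value of 23.1%, 11.3% and 19.6% of all tested probe sets. The mean of the 3 Nr4a genes was 0.17, 0.27 and -0.21 in lean pools 1 to 3, against -0.02, -0.38 and 0.07 in overfed pools 1 to 3. The mean of the 4 Dusp genes was -0.04, 0.22 and -0.28 in the lean and -0.09, 0.01 and 0.14 in the overfed pools. Lean pool 3 had the lowest mean of the Dusp genes and overfed pool 2 that of the Nr4a genes. Overfed pool 2 was also the lowest pool of Dusp1 in probe set 1368146_at, at -0.25. The array controls also set lean pool 3 apart, with 9 hybridization control probe sets averaging 0.50, compared with -0.25 to 0.06 elsewhere. The 3' minus the 5' beta-actin value, each centred on its own median, was 0.36 there and 0.061 or less elsewhere. Such centred values compare pools and do not give the 3' to 5' gap within a pool. The hybridization control means lay at 0.045 or above in the lean and at -0.041 or below in the overfed pools. Over all probe sets, the array SD ran from 0.14 in overfed pool 2 to 0.29 in overfed pool 1. Oviduct and ciliated epithelium markers were below 0 in their diet difference in 10 of 10 genes, 8 of them at an unadjusted limma p under 0.05 and 0 at an adjusted one, with list means of -0.03 to 0.76 in the lean and -0.82 to -0.25 in the overfed pools. The other marker lists, apart from leukocytes, were as follows. Granulosa markers had 5 of 6 above 0 with a median of 0.35, theca markers 2 of 2 with 0.40 and adipocyte markers 0 of 6 with -0.34. Smooth muscle markers had 3 of 8 with -0.04, endothelial markers 1 of 4 with -0.06 and corpus luteum markers 2 of 8 with -0.06. At an unadjusted limma p under 0.05 there was 1 granulosa and 1 theca marker, both higher, and 0 in the other 4 lists. Among all genes' representative probe sets, 52.2% were above 0 and 7.15% were under that p (2.67% higher and 4.47% lower). The part of the array controls and of these markers in the members' values was not tested.

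Over the 6 arrays, 14 of the 21 pairs among the 7 genes had a Pearson r above 0 and 2 reached 0.8, as a description of pools that share an array each. These were Dusp5 with Dusp6 at 0.91 and Nr4a1 with Dusp1 at 0.83. Dusp2 ran against Nr4a1 at -0.52 and against Nr4a2 at -0.51. Among 6846 candidate genes, the pattern most like Nr4a1 was that of Sik1, the salt-inducible kinase, with r = 0.989. Sik1 was at 0.53, 0.56 and -0.22 in the lean pools, against -0.33, -0.60 and 0.22 in the overfed pools, a difference of -0.52 (SE 0.27, limma adjusted p = 0.821). The order of the 6 pools was the same for both genes. With 6 arrays a close match is easily found, since the best candidate of each of the 7 members had an r between 0.963 and 0.997, so the size of r does not set Sik1 apart. The next 2 for Nr4a1 were Spag16 at 0.977 and Klk8 at 0.957. For Dusp1 the closest were Acacb (0.985), Txn2 (0.977) and Zfp282 (0.976), and for Dusp2 they were Tlr1 (0.963), Msto1 (0.963) and Eppin (0.956). Tlr1 is a receptor for bacterial lipopeptides on myeloid cells. It was at -0.21, -0.05 and -0.17 in the lean and 0.15, 0.23 and 0.05 in the overfed pools. Msto1 was at -0.20, 0.05 and -0.12 in the lean and 0.18, 0.18 and -0.05 in the overfed pools. Eppin was at -0.25, -0.04 and -0.16 in the lean and 0.15, 0.21 and 0.04 in the overfed pools. These genes were picked for their match to Dusp2 over the same arrays.

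**Figure D4:**
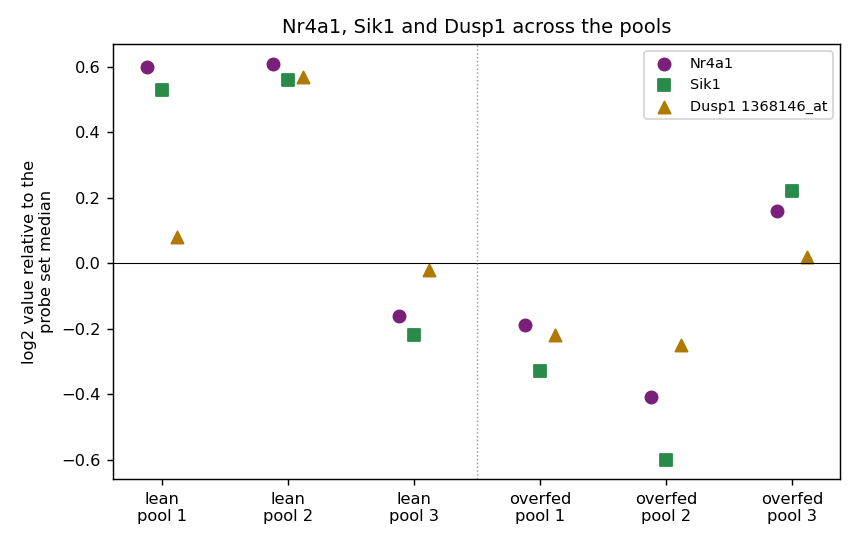
Log2 value of Nr4a1 (circles), Sik1 (squares) and Dusp1 probe set 1368146_at (triangles) in each of the 6 pools, relative to each probe set's median. Nr4a1 and Sik1 are highest in lean pools 1 and 2, at 0.53 to 0.61, and lowest in overfed pool 2, at -0.41 and -0.60.

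The genes around the members were taken from 9 pathway lists, of which 121 genes were measured here. None passed limma's test adjusted over all probe sets, and 9 had an unadjusted p under 0.05, 6 higher and 3 lower, beside 7.15% of all genes' representative probe sets (2.67% higher and 4.47% lower). In 14 of the 121 the lean and overfed pools were fully separate, near the 12.7% of all tested probe sets. Among 5 other MAP kinase phosphatases, 1 was higher and 1 lower at that p. Dusp9, an ERK phosphatase, was at -0.30, -0.09 and -0.08 in the lean and 0.08, 0.38 and 0.33 in the overfed pools, a limma difference of 0.42 (SE 0.11, unadjusted p = 0.0079, adjusted p = 0.637). Dusp4, a nuclear ERK phosphatase close in sequence to Dusp1, had a limma difference of -0.26 (SE 0.10, unadjusted p = 0.0337, adjusted p = 0.719), and Dusp7 of 0.17. Neither Dusp9 nor Dusp4 overlapped between the groups. Of 14 atypical and other dual-specificity phosphatases, 5 were above 0 and 1 had an unadjusted p under 0.05, the mitochondrial Dusp18 at -0.30 (SE 0.09, limma adjusted p = 0.667). Dusp11, an RNA phosphatase, was at 0.17 and the pseudophosphatase Styxl1 at -0.34.

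The kinase cascades that the phosphatases act on had medians near 0. In the Ras-ERK cascade 9 of 15 genes were above 0, with a median of 0.01, and 2 had an unadjusted p under 0.05. The epidermal growth factor receptor Egfr, through which the luteinizing hormone signal spreads in follicles, was at -0.28, -0.30 and -0.11 in the lean and 0.22, 0.46 and 0.11 in the overfed pools. Every overfed pool lay above every lean pool, and the limma difference was 0.49 (SE 0.11, 1.41-fold, unadjusted p = 0.0035, adjusted p = 0.623). The phosphatase Ptpn11, which couples growth factor receptors to Ras, was at 0.32 (SE 0.11, limma adjusted p = 0.705), and the exchange factor Sos2 at 0.17. In the p38 and JNK cascades 5 of 12 were above 0, with a median of -0.02 and 0 at an unadjusted limma p under 0.05. Map3k1 was at 0.26, the JNK gene Mapk8 at 0.26 and the p38 gene Mapk14 at -0.08. The ERK feedback inhibitors and ERK-induced factors are, like Dusp5 and Dusp6, often read as a trace of ERK activity, which was not measured here. Of these, 11 of 14 were above 0 with a median of 0.04, beside 52.2% above 0 among all genes. At an unadjusted limma p under 0.05 there were 0. The list means overlapped, at -0.08 to 0.04 in the lean and -0.07 to 0.09 in the overfed pools. The ETS factors Etv4 and Etv5 were at 0.16 and 0.13, and Phlda1 at -0.21.

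Upstream and downstream of the receptors, Nr4a dimer partners and ovarian target genes had 6 of 8 above 0 and a median of 0.03. Akr1c18, listed as Akr1c3 in the current annotation, was at -0.75, 0.50 and 0.01 in the lean and -0.01, -0.22 and 0.02 in the overfed pools, a difference of 0.01 (SE 0.29, limma adjusted p = 0.997). Lean pool 1 held the lowest and lean pool 2 the highest Akr1c18 value, and a relation to the Nr4a1 values was not tested. Cyp17a1, which makes androgens in theca cells, had a limma difference of 0.69 (SE 0.27, unadjusted p = 0.0351, adjusted p = 0.719), the cholesterol carrier Star at -0.17 and the theca hormone Insl3 at 0.10. Among 17 gonadotropin, prostaglandin and cyclic AMP inputs 9 were above 0, and 1, the prostaglandin E receptor Ptger2, had an unadjusted limma p under 0.05, with -0.45 (SE 0.17, adjusted p = 0.719). The kinase subunit Prkar2b was at 0.23 and the CREB relative Atf1 at 0.12. Of 31 other immediate-early genes 12 were above 0, with a median of -0.01. Klf6 was at 0.31 (SE 0.09, limma adjusted p = 0.647), Egr2 at 0.59 (SE 0.21, limma adjusted p = 0.708) and Gadd45g at 0.34. Of 5 glucocorticoid-induced genes, a class to which Dusp1 belongs, 2 were above 0, with a median of -0.14 and 0 at an unadjusted limma p under 0.05. Per1 was at -0.23, Sgk1 at -0.15 and Fkbp5 at 0.27. These lists were described by their counts and medians and were not tested as sets.

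**Figure D5:**
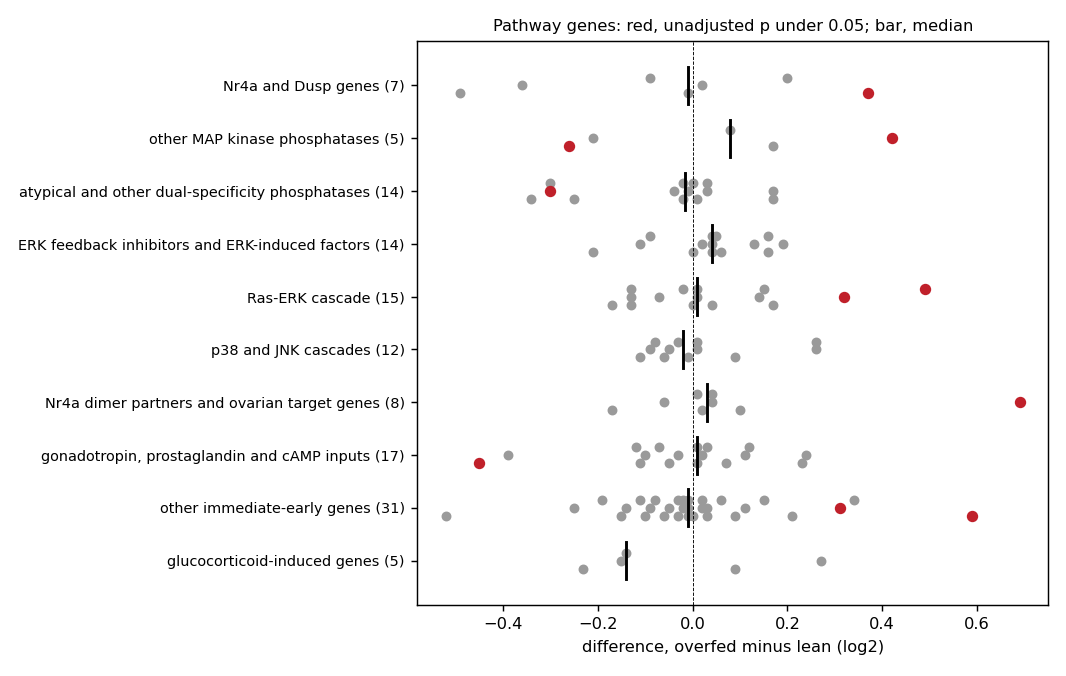
Difference in log2 value, overfed minus lean (horizontal axis), of each measured gene of the 7 members and of 9 pathway lists (rows, number of genes in brackets). Red points have an unadjusted limma p under 0.05, grey points do not, and the black bar is the list median, which lies between -0.14 and 0.08 in every row.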

How the data were processed

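Ovary RNA of 3 lean and 3 overfed pools was hybridized to 1 Affymetrix array each. The submitters' processing notes name GCOS without a version. The deposited values are log values, taken as log2, and the authors had centred them: all 31099 rows of the deposited table have a median of 0 (tolerance 1e-06). No source used here states the summary, the normalization, the filters or the log base. If the logarithms are natural, Nr4a1 is at 0.61-fold, Dusp1 at 0.699-fold and Dusp2 at 1.45-fold, with tests unchanged. The number of arrays limits the precision.

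After 57 control probe sets were left out, 31042 were tested, of which 20826 had 1 gene name, 436 several and 9780 none here. Symbols were updated through Entrez identifiers in the RefSeq table (GRCr8), which held 20758. The diets were compared by limma (version 3.58.1, R version 4.3.3; lmFit and eBayes without a trend, two-sided, Benjamini-Hochberg over all tested probe sets, threshold 0.05). The fit was tested on simulated data. A gene with several probe sets is represented by the one with a RefSeq mRNA accession, then a unique before a shared type, then the lowest identifier. No filter on level is possible in centred values.

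Members, lists and tests were chosen with earlier results of these data known. Named were the members, the 3 genes of each pathway list with the lowest unadjusted p, and for each member the 3 genes with the highest Pearson r over 6 arrays among probe sets whose SD reached the median. Akr1c18 was named after its values were seen. Alternatives were quantile normalization, array median centring, a robust prior, array weights, a replicate block, leaving out each pool, leaving out the 50% of probe sets of smaller SD, the mean of a gene's probe sets and natural logarithms. Leaving out lean pool 3 and overfed pool 1 together was chosen after seeing the data. Of the columns, 0 belonged to other series. Python 3.11.15 and matplotlib 3.10.9 drew the figures.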

Additional observations from a re-analysis of the deposited data

How the results depend on the processing

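No member passed limma's adjusted threshold in any of 13 alternative settings (smallest adjusted p = 0.502), and 5 of the 13 probe sets (Nr4a1, Nr4a2 1369007_at, Dusp1 1368146_at, Dusp2 and Dusp6 1382778_at) kept their sign in all that were run. Of these settings 3 (the robust prior, the replicate block and the filter on SD) leave a difference as it is by construction, so 10 bear on the sign. The count of members at an unadjusted limma p under 0.05, 1 as reported, was 3 with array weights (Nr4a1, Dusp1 1368146_at and Dusp2), 0 to 3 with any 1 pool left out and 2 when lean pool 3 and overfed pool 1 were both left out. Over all tested probe sets it was 2224 with array weights and 1513 to 2267 with any 1 pool left out. With both lean pool 3 and overfed pool 1 left out it was 1694. With the filter on SD the count of members was 1, but Nr4a1 and not Dusp2. Over all probe sets, leaving out the 50% of smaller SD gave 62 at an adjusted p under 0.05, where the whole table gave 0. At an unadjusted p under 0.05 it gave 944 beside 2070, from fewer probe sets tested. The filter also changed the unadjusted limma p-values, from 0.0783 to 0.0456 for Nr4a1 and from 0.0229 to 0.0614 for Dusp2. Because the SD came from the values under test, this filter was not independent of the comparison. No conclusion about the diets is drawn from the 62. Nr4a3 turned below 0 with quantile normalization (-0.17 in 1369067_at and -0.07 in 1393389_at), array weights (-0.20 and -0.15), with both lean pool 3 and overfed pool 1 left out (-0.38 and -0.28) and as the mean of its probe sets (-0.00025); the cause was not tested. With any 1 pool left out, the differences that changed sign ran from -0.12 to 0.07 for Nr4a2 1387410_at, from -0.20 to 0.26, -0.14 to 0.073 and -0.22 to 0.17 for Nr4a3 1369067_at, 1369217_at and 1393389_at, from -0.46 to 0.049 for Dusp1 1368147_at, from -0.12 to 0.08 for Dusp5, from -0.005 to 0.36 and -0.068 to 0.26 for Dusp6 1387024_at and 1377064_at, from -0.069 to 0.28 for Insl3 and from -0.0042 to 0.50 for Fkbp5. The other 26 of 28 named list genes kept their sign under quantile normalization, median centring and any 1 pool left out. Akr1c18, named after its values were seen, was not among these 28. Of 152 list medians under these settings 5 moved by more than the spread between pools, and of 152 counts of list genes at an unadjusted p under 0.05, 33 moved by over 1.5 times, such as the Nr4a dimer partners and target genes from 1 to 0 with quantile normalization.

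The pools share numbers across the diets, but the correlations of same-numbered pools' deviations from their group means were 0.10, 0.17 and -0.28, so the numbers were not taken as a pairing, and not every pool correlated best with its own number. With the pool number as a replicate block, 1757 probe sets had an unadjusted limma p under 0.05, 0 an adjusted one, and 1 member; this balanced block cannot change a difference. Signal over background is unknown, so whether a low spread, as in Nr4a2, belongs to a dim probe set was not tested.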

Other observations

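The members that lay farthest apart between the diets can also be set against each other within an array, where a shift of the whole array cancels. The log2 value of Dusp2 minus that of Dusp1 (1368146_at) was -0.33, -0.56 and -0.26 in lean pools 1 to 3, against 0.52, 0.55 and -0.04 in overfed pools 1 to 3, so the diets did not overlap in this difference. With the other Dusp1 probe set, 1368147_at, they did overlap, at -0.52, -0.49 and 0.23 in the lean and 0.51, 0.43 and -0.14 in the overfed pools. Dusp6 (1387024_at) minus Dusp1 was -0.09, -0.37 and -0.50 in the lean and 0.03, 0.26 and 0.42 in the overfed pools, without overlap, but of the 6 combinations of Dusp6 and Dusp1 probe sets only 2 were without overlap, both with 1387024_at. Dusp2 minus Nr4a1 overlapped as well, at -0.12 in lean pool 3 and -0.17 in overfed pool 3. The pairs thus depended on the probe set, were chosen after their values were seen and were not tested. Subtracting a member that is lower in overfed ovaries from one that is higher widens the gap between the diet means by construction. The share of all pairs of probe sets without overlap was not computed, so the lack of overlap has no background here.

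Patterns like those of the remaining members were found in genes with no part in the lists above. For Nr4a3 the closest were Qrsl1 (r = 0.995), the transcriptional repressor Bcl6 (0.974) and Crtap (0.971), for Nr4a2 S100b (0.973), Btrc (0.970) and Atxn2 (0.969), for Dusp5 Tmem163 (0.997), Oma1 (0.997) and Sdhaf4 (0.995), and for Dusp6 Tmem69 (0.994), Commd10 (0.988) and Ctbs (0.987). Oma1, a mitochondrial protease, was at 0.03, 0.16 and -0.55 in the lean and -0.48, -0.03 and 0.18 in the overfed pools, which is low in the same 2 pools as Dusp5. Each r is over 6 arrays.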
